A study of Mus musculus with 145 samples.

Results

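Cholesterol is made in skin and also moved through it, and 29 mouse genes of these tasks are described here in dorsal skin after ultraviolet light from a tanning canopy. They were taken as a fixed list of symbols, found through the Ensembl identifiers of the deposited count table. All 29 were among its 55416 identifiers, and all 29 were among the 18677 genes that passed the filter on low counts. By role they were 8 genes of the mevalonate branch (Acat2, Hmgcs1, Mvk, Pmvk, Mvd, Idi1, Fdps and Ggps1) and 11 of the sterol branch (Fdft1, Sqle, Lss, Cyp51, Tm7sf2, Msmo1, Nsdhl, Hsd17b7, Ebp, Sc5d and Dhcr7). The other members were 5 regulators (Srebf1, Srebf2, Scap, Insig1 and Insig2) and 5 genes of sterol transport (Stard4, Npc1, Npc2, Abca1 and Abcg1).

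Mice were either sham-handled (0 mJ/cm2) or given 5, 10, 20 or 40 mJ/cm2 from a canopy with 8 lamps (100 W each) that emits 96.4% UVA with 3.6% UVB. Dorsal skin was taken at 0, 6, 24, 48, 72 or 96 h, and each library came from an animal of its own, so no animal was followed over time. Of the 30 groups that the 145 libraries filled, 25 held 5 libraries and 5 held 4, those of 4 being 20 mJ/cm2 at 48 h and the 4 irradiated groups at 96 h. All groups were dorsal skin, and the labels used here name no strain, genotype, sex or age of the mice and no clock hour for the times.

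Cholesterol synthesis runs from acetyl-CoA through mevalonate and the isoprenoid diphosphates to squalene, and from squalene through lanosterol to cholesterol. When sterols in the endoplasmic reticulum run low, Scap carries the SREBP proteins (products of Srebf1 and Srebf2) to the Golgi, where they are cut to release transcription factors for the enzymes of the pathway, and the Insig proteins hold them back when sterols are plentiful. In skin, the epidermis uses cholesterol for its barrier lipids, sebaceous glands make sterols for sebum, and the substrate of Dhcr7 is also the compound that UVB turns into previtamin D.

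The libraries differed widely in depth, with total counts of 0.18 to 64.6 M (median 11.1 M). Only 2 libraries held under 1 M, namely 10 mJ/cm2 replicate 5 at 6 h and 20 mJ/cm2 replicate 5 at 0 h. Levels are in CPM, that is counts per M counts of the scaled library size, and fold changes are log2 differences from edgeR with standard errors (SE). The p-values measure the spread between animals and were adjusted over all 18677 genes of a comparison, and a call means an adjusted p under 0.05. Defining markers of skin cell types were present in the sham 0 h libraries, where the summed level of 14 keratinocyte genes ran from 12810 to 26090 CPM and that of 13 sebaceous gland genes from 3169 to 5177 CPM. Skeletal muscle genes were abundant too, with 19 of them summing to between 17990 and 32360 CPM at 0 h.

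Per kilobase of spliced length, the members covered a wide range in sham skin at 0 h. This length merges all annotated exons of a gene and can exceed that of its main transcript, so the order depends in part on the annotation. Msmo1, a methyl oxidase of the sterol branch, was highest at 149 CPM per kilobase, and Hmgcs1, which makes the precursor of mevalonate, followed at 132. Cyp51, the lanosterol demethylase, had 104 CPM per kilobase, and Idi1, the isopentenyl diphosphate isomerase, had 84.9. At the low end stood Mvk (mevalonate kinase) at 5.51, Tm7sf2 (a sterol reductase) at 2.71 and Abcg1 (a sterol exporter) at 1.89 CPM per kilobase. The SD over the 5 animals was 365 CPM on a mean of 916 CPM for Msmo1 and 243 CPM on a mean of 604 CPM for Hmgcs1. Both genes were measured in the same libraries, and the gap between these neighbours was not tested.

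The stretches before the gene starts are shown because 12 of the 19 enzymes were called lower at 1 or more later times than at 0 h in sham skin. At single times between 1.91% and 4.3% of all genes were called lower. The share called lower at 1 or more of these times was not counted, and all of them share the 0 h libraries. RefSeq windows of the 250 bases before a start (build GRCm38.p6) were at hand for 23 of the 29 members; the files themselves are on GRCm39, so these coordinates serve for the sequences alone. The CCAAT motif, searched on both strands (CCAAT or ATTGG), occurred in 20 of the 23 members, against 37.5% of all 26987 genes with a window and 39.4% of the 12540 tested genes with one. The 20 included Mvk, Pmvk, Mvd, Ggps1, Tm7sf2, Sc5d, Srebf1, Srebf2 and Npc2, not called lower in sham skin with title ending as the only covariate. In the sequences, read 5′ to 3′ along the gene's strand, capitals mark CCAAT or its complement, and in Hmgcs1 also TCACCCCAC. Shown are 4 sterol branch genes and 2 mevalonate branch genes that fell in sham skin: Cyp51 (chr5:4104698-4104947, minus strand), Msmo1 (chr8:64733579-64733828, minus), Nsdhl (chrX:72918271-72918520, plus), Lss (chr10:76531355-76531604, plus), Hmgcs1 (chr13:119690101-119690350, plus) and Acat2 (chr17:12960726-12960975, minus).
Cyp51: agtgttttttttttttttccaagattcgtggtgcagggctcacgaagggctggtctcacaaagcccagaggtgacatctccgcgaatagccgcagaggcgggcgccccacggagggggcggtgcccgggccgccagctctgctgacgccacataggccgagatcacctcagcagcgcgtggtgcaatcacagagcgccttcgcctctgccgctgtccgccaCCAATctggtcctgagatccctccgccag
Msmo1: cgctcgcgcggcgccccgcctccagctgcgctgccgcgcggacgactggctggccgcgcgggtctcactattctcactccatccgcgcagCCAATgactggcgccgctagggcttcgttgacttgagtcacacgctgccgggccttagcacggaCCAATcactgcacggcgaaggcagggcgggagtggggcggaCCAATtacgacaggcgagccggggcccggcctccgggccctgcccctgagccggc
Nsdhl: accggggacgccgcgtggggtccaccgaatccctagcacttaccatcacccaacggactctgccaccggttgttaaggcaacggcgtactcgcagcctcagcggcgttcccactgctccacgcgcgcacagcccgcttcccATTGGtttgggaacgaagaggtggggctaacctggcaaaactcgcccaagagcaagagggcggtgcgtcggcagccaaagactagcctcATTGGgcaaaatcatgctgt
Lss: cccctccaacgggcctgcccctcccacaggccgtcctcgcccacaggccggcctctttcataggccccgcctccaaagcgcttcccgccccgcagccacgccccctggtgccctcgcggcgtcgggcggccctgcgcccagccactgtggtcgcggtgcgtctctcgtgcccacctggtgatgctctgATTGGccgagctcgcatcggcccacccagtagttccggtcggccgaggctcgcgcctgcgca
Hmgcs1: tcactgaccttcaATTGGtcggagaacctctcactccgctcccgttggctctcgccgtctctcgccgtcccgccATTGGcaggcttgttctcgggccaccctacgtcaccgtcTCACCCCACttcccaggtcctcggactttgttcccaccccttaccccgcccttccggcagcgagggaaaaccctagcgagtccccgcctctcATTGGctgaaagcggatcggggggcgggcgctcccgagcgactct
Acat2: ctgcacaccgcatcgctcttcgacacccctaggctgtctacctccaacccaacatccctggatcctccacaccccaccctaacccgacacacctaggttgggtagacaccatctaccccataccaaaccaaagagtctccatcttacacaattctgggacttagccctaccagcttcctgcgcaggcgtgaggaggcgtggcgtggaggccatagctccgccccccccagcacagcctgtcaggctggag

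Counted back from the start, CCAAT began at −29 in Cyp51, at −160, −96 and −55 in Msmo1, at −109 and −20 in Nsdhl, at −62 in Lss and at −237, −176 and −45 in Hmgcs1, and Acat2 held none. A relaxed sterol regulatory element (TCACNCCAC, both strands) occurred in 1 of the 23 members, Hmgcs1 at −137, against 1.23% of all genes with a window, and the stricter form, TCACCCCAC preceded by A, in 0 of the 23, against 0.0815% of genes. The E-box CACGTG, the site of clock and SREBP factors alike, occurred in 6 of the 23 (Hsd17b7, Sc5d, Dhcr7, Scap, Insig1 and Abca1), against 6.86% of all genes and 9.31% of the tested ones. The D-box TTATGTAA, which clock output factors bind, occurred in 0 of the 23, against 0.975% of all genes. These are matches of letters in short windows and do not show that a factor was bound.

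In sham skin, enzymes of the sterol branch were lower at 6 h than at 0 h, and 6 members were called lower at every later time. At 6 h, 11 of the 29 members were called lower and 0 higher, where 1.91% of all genes were called lower and 0.921% higher. The fall took in 9 of the 11 sterol branch genes (Fdft1, Sqle, Lss, Cyp51, Msmo1, Nsdhl, Hsd17b7, Ebp and Dhcr7), 2 of the 8 mevalonate branch genes (Acat2 and Hmgcs1), 0 of the 5 regulators and 0 of the 5 transport genes. The median log2 difference over the 29 members was −0.62, against −0.01 over all genes tested. In bulk skin, fewer cells that make sterols and less RNA per cell cannot be told apart.

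Hsd17b7, a ketosteroid reductase that acts while methyl groups are removed from the sterol ring, had 76.5, 83.4, 97.2, 94.4 and 80.6 CPM in sham skin at 6 h, against 153, 185, 216, 144 and 196 CPM at 0 h. The highest 6 h library lay below the lowest 0 h library, and the log2 difference was −1.07 ± 0.15 (SE, edgeR adjusted p = 0.000298). Sqle, the squalene epoxidase that starts the sterol branch proper, had 69.5, 105, 69.7, 82.9 and 80.0 CPM at 6 h, against 177, 238, 185, 137 and 118 CPM at 0 h. Again no libraries of the 2 times overlapped, with a log2 difference of −1.08 ± 0.17 (edgeR adjusted p = 0.000542). Nsdhl, a dehydrogenase of the same demethylation steps as Hsd17b7, had 33.1, 49.7, 34.1, 45.8 and 43.5 CPM at 6 h, against 90.3, 93.9, 116, 75.8 and 55.4 CPM at 0 h. Every 6 h library was below every 0 h library, and the log2 difference was −1.09 ± 0.20 (edgeR adjusted p = 0.00247).

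Cyp51 had 139, 214, 172, 317 and 208 CPM in sham skin at 6 h, against 330.0, 569, 763, 372 and 268 CPM at 0 h. Here 1 library at 6 h reached into the 0 h range, and the log2 difference was −1.15 ± 0.26 (edgeR adjusted p = 0.0113). Msmo1, the methyl oxidase with the highest level of all members, had 265, 476, 366, 592 and 436 CPM at 6 h, against 662, 1266, 1362, 650.0 and 639 CPM at 0 h. The groups did not overlap, and the difference was −1.12 ± 0.26 (edgeR adjusted p = 0.0164). Lss, the lanosterol synthase, averaged 67.6 ± 6.62 CPM at 6 h and 128 ± 36.8 CPM at 0 h (SD, n = 5 each), and Fdft1, the squalene synthase, 72.9 ± 11.8 and 113 ± 20.4 CPM. Their differences were −0.94 ± 0.20 for Lss (edgeR adjusted p = 0.00734) and −0.66 ± 0.14 for Fdft1 (edgeR adjusted p = 0.0081). Fdft1 overlaps the gene Ctsb and Cyp51 overlaps Akap9, and nothing states whether strand was used in counting, so reads of these pairs may be shared.

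Dhcr7, the last reductase before cholesterol, had 33.8, 31.5, 30.3, 17.4 and 37.6 CPM in sham skin at 6 h, against 87.8, 78.3, 41.5, 42.8 and 54.9 CPM at 0 h. The groups did not overlap, and the log2 difference was −1.03 ± 0.25 (edgeR adjusted p = 0.0224). For Ebp, a sterol isomerase, the difference was −0.62 ± 0.17 (edgeR adjusted p = 0.0381), with 40.5 ± 6.03 CPM at 6 h and 61.3 ± 15.0 CPM at 0 h (SD, n = 5 each). In the mevalonate branch, Acat2, the cytosolic thiolase of the first step, had 54.7, 76.7, 58.0, 49.1 and 69.9 CPM at 6 h, against 168, 158, 92.4, 98.0 and 109 CPM at 0 h. All 6 h libraries were below all 0 h libraries, a log2 difference of −1.04 ± 0.18 (edgeR adjusted p = 0.0014). Hmgcs1 had 276, 386, 326, 393 and 327 CPM at 6 h, against 403, 720.1, 971, 525 and 403 CPM at 0 h, again with no overlap and with a difference of −0.82 ± 0.20 (edgeR adjusted p = 0.0199). Acat2 has the close relative Acat3, so its count may borrow reads.

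The other later times gave the same direction. Called lower against 0 h were 8 members at 24 h (2.88% of all genes), 7 at 48 h (4.3%), 7 at 72 h (2.31%) and 12 at 96 h (3.9%). None was called higher at these times, where 1.75%, 2.04%, 1.63% and 1.22% of all genes were. The medians over the 29 members were −0.44, −0.43, −0.37 and −0.42 at 24, 48, 72 and 96 h, against medians between −0.01 and 0.02 over all genes. Called at all 5 later times were 6 members, namely Acat2, Hmgcs1, Sqle, Cyp51, Nsdhl and Hsd17b7. When the muscle gene level was a covariate, Acat2 alone of these was called at all 5 times, Hsd17b7 at 4, Sqle at 2, Nsdhl at 1, and Cyp51 and Hmgcs1 at none. Other members were gained, so that 15, 14, 15 and 14 were called lower and 2, 0, 1 and 1 higher at 24, 48, 72 and 96 h. Of all genes, 38.9%, 17.9%, 33.7% and 17.4% were called in these fits. Summed muscle levels at 24, 48 and 96 h lay above the 0 h range, so time and muscle level cannot be told apart there. At 6 and 72 h only replicate 4 (31700 CPM) and replicate 3 (28550 CPM) reached into the 0 h range of 17990 to 32360 CPM. The other libraries of these times had at least 37100 and 50780 CPM, so time and muscle level can hardly be told apart there either. Hmgcs1 with the muscle covariate stood at 0.03 at 48 h (edgeR adjusted p = 0.948) and at 0.0021 at 72 h (0.997), above 0. Hsd17b7 averaged 179 ± 30.0 CPM at 0 h, then 86.4 ± 8.94, 102 ± 20.7, 104 ± 15.4, 110.1 ± 14.3 and 90.2 ± 17.1 CPM at 6, 24, 48, 72 and 96 h (SD, n = 5 each), and all 25 later libraries lay below the lowest 0 h library. Ebp was called at 4 of the times, Msmo1 at 3, Fdft1, Lss and Dhcr7 at 2, and Idi1 and Insig2 at 96 h alone, with Idi1 at −1.33 ± 0.38 (edgeR adjusted p = 0.0362) and Insig2 at −0.75 ± 0.19 (edgeR adjusted p = 0.0178). The muscle covariate ended the Idi1 and Insig2 calls (−0.01 and −0.33) and each of the 3 Msmo1 calls. All 5 comparisons share the same 5 libraries at 0 h, and the share of all genes called at all 5 times was not counted. How the library titles end was a term of each fit, and values within each ending are given with the pooled times.

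**Figure D1:**
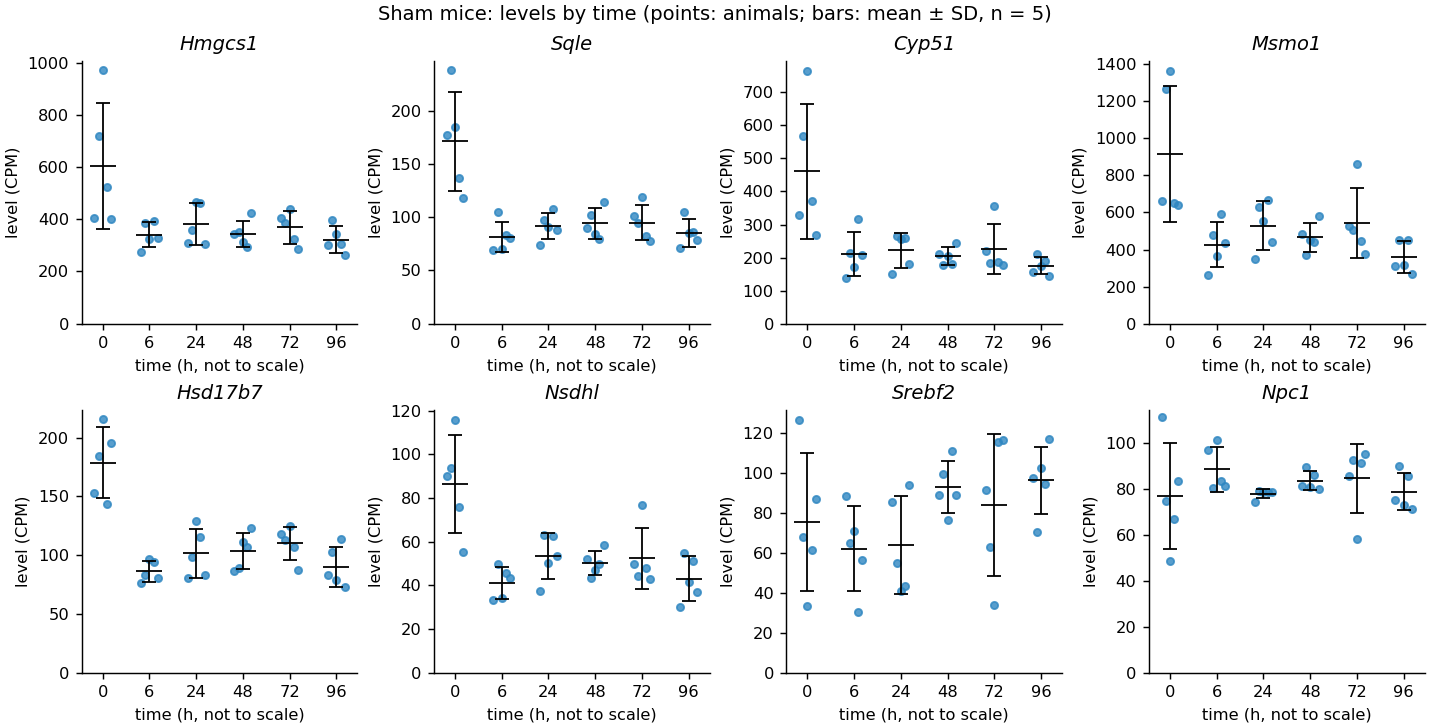
CPM of 8 members in each sham library (points) by time in hours, with bars for mean and SD of the 5 animals of a time. The means of Hsd17b7, Sqle, Cyp51, Msmo1, Nsdhl and Hmgcs1 stand highest at 0 h and lower from 6 h on. Of the 25 later libraries, 25, 24, 23, 23, 21 and 20 lie below the lowest 0 h library for these genes in that order. For Srebf2 and Npc1 the numbers are 1 and 0.

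No member was called between neighbouring later times. Between 6 and 24 h, 24 and 48 h, 48 and 72 h and 72 and 96 h, edgeR called 0 of the 29 members, where it called 0.0214%, 0.0161%, 0.0321% and 0.0535% of all genes in either direction. At an unadjusted p under 0.05 there were 1, 0, 0 and 1 members in these steps, against 3.3%, 5.43%, 2.81% and 7.29% of all genes. DESeq2 called 0 members in each. Over all 6 times together, 8 members were called to change in sham skin (Acat2, Hmgcs1, Sqle, Lss, Cyp51, Msmo1, Nsdhl and Hsd17b7), where 4.29% of all genes were.

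A further 16 members were called at none of the later sham times against 0 h in the fits without the muscle gene level. In the mevalonate branch these were Mvk, Pmvk, Mvd, Fdps and Ggps1, which makes the diphosphate used to prenylate proteins. The closest to a call in this branch was Fdps, the farnesyl diphosphate synthase, at 6 h, with −0.85 ± 0.26 (edgeR adjusted p = 0.0706). Mvd, which decarboxylates mevalonate diphosphate, had a wide spread, with 23.8, 12.6, 15.6, 3.09 and 12.7 CPM at 6 h, against 44.3, 18.5, 2.02, 14.8 and 34.9 CPM at 0 h. The ranges overlapped, and the difference was −0.76 ± 0.64 (edgeR adjusted p = 0.668). In the sterol branch, Sc5d, the sterol desaturase, ranged from −0.54 to −0.37 and Tm7sf2 from −0.36 to 0.31 over the 5 times.

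The regulators gave 1 call over the 5 later times, that of Insig2 at 96 h, in the fits without the muscle gene level. Srebf2, the main SREBP gene of cholesterol synthesis, had 88.3, 64.6, 70.8, 30.3 and 56.3 CPM in sham skin at 6 h, against 126, 67.7, 33.5, 61.3 and 86.7 CPM at 0 h. These ranges overlapped, and over the 5 later times its log2 differences ran from −0.31 to 0.36 (lowest edgeR adjusted p = 0.52). Srebf1 ran from −0.01 to 0.75 and Scap from 0.01 to 0.51, with no call. Insig1, itself a target of SREBP proteins, ran from −0.63 to −0.44 with a lowest edgeR adjusted p of 0.0533.

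Of the transport genes, Stard4, which carries cholesterol between membranes inside the cell, ran from −0.76 to −0.42 against 0 h (lowest edgeR adjusted p = 0.083). Npc1 and Npc2, the pair that lets cholesterol out of lysosomes, ran from −0.01 to 0.18 and from −0.01 to 0.23. Npc1 had 96.6, 80.1, 101, 83.3 and 81.0 CPM at 6 h, against 111, 74.6, 48.4, 66.7 and 83.4 CPM at 0 h, so that the 6 h libraries lay inside the 0 h range. Abca1 and Abcg1, the exporters that LXR factors switch on, ran from −0.33 to 0.36 and from 0.08 to 0.51, and neither was called without the muscle covariate.

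Several of these calls rested on single libraries. Hsd17b7 and Sqle kept their calls at all 5 times in each of the 10 fits, and Cyp51 did so except at 72 h, where 5 fits lost it (highest edgeR adjusted p = 0.069). Of the other members called at all 5 times, Acat2 was lost in 5, 7 and 6 of 10 fits at 24, 48 and 72 h (highest edgeR adjusted p = 0.135), Hmgcs1 in 7, 4 and 7 (0.174) and Nsdhl in 5, 1 and 6 (0.121). At 6 h, Hmgcs1 was lost in 4 of 10 fits, Msmo1 in 3, Dhcr7 in 5 and Ebp in 6, with highest edgeR adjusted p of 0.0743, 0.0639, 0.0651 and 0.107. At 96 h, Idi1 was lost in 7 fits, Insig2 in 4, Fdft1 in 6, Lss in 8 and Ebp in 5. Without sham replicate 2 at 0 h or sham replicate 3 at 6 h, the count at 6 h was 7. At 24 h it was 3 without sham replicate 3 at 24 h or replicate 2 at 0 h and 4 without replicate 1 at 24 h. At 48 h it was 4 without replicate 1 or 4 of that time or replicate 2 or 3 at 0 h, and 11 without replicate 5 at 0 h. At 72 h it was 2 without replicate 1, 2, 4 or 5 of that time, 3 without replicate 2 at 0 h and 12 without replicate 3 at 72 h. At 96 h it was 7 without replicate 1 or 5 of that time or replicate 2 at 0 h, and over all times together it was 5 without replicate 2 at 0 h.

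Fatty acid synthesis is also driven by SREBP proteins. Of its 13 listed genes, 6 were called lower at 6 h against 0 h and 0 higher, among them Elovl6 at −1.60 ± 0.31 (edgeR adjusted p = 0.00348) and Acly, the citrate lyase that supplies acetyl-CoA, at −1.01 ± 0.19 (edgeR adjusted p = 0.00239). In the list of sterol uptake, esters, efflux and LXR, 4 of 23 measured genes were called lower and 2 higher at 6 h. Soat1, which esterifies cholesterol, fell by 1.20 on the log2 scale (SE 0.20, edgeR adjusted p = 0.000988), Erg28 by 0.80 (SE 0.15, edgeR adjusted p = 0.00246) and Tmem97 by 1.04 (SE 0.22, edgeR adjusted p = 0.00717), whereas Nceh1, a cholesterol ester hydrolase, rose by 0.87 ± 0.17 (edgeR adjusted p = 0.00475). Of the 10 genes of SREBP processing and enzyme degradation, 0 were called at 6 h.

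Markers of other cell types and of the time of day moved in the same comparison. Sebaceous gland genes were called lower for 6 of 13 at 6 h, with Elovl3 at −1.72 ± 0.26 and Awat1 at −1.41 ± 0.22, and their summed level ran from 2072 to 2373 CPM at 6 h and from 3169 to 5177 CPM at 0 h. Keratinocyte genes were called lower for 4 of 14, and summed to between 6386 and 11370 CPM at 6 h and between 12810 and 26090 CPM at 0 h. Skeletal muscle genes were called higher for 5 of 19, and summed to between 31700 and 64330 CPM at 6 h and between 17990 and 32360 CPM at 0 h. None of these marker genes was at 0 in every library of either group. Of 12 measured clock output genes 4 were called higher and 3 lower, led by Dbp at 3.18 ± 0.33. Mitochondrial genes took between 4.44% and 13.5% of counts at 6 h and between 3.96% and 34.8% at 0 h, the highest being sham replicate 3. The part of these differences in the fall of the sterol genes was not tested. With the mitochondrial share as a covariate, edgeR called 13 members lower at 6 h and 0 higher, where 5.19% of all genes were called. With the muscle gene level as a covariate it called 17 lower and 2 higher (Ggps1 at 0.79 and Abca1 at 1.00), where 33% of all genes were called. Of the 11 members called without it, 8 were called in that fit too, and Cyp51 (−0.45, edgeR adjusted p = 0.112), Msmo1 (−0.49, 0.116) and Hmgcs1 (−0.29, 0.219) were not. Mvk, Pmvk, Mvd, Fdps, Tm7sf2, Srebf1, Srebf2, Scap and Npc2 were among those called lower with it, Srebf1 at −1.64 (edgeR adjusted p = 0.00264). Only sham replicate 4 at 6 h reached into the 0 h range of muscle sums, so time and muscle level can hardly be told apart in that fit.

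Because no member was called between neighbouring later times, the later libraries of each dose were also pooled and set against the 0 h libraries of the same dose, a comparison chosen after the data were seen. In sham skin 15 of the 29 members were called lower and 0 higher, where 8.72% of all genes were lower and 3.62% higher. At 5 mJ/cm2 the counts were 8 lower and 0 higher (2.1% and 1.46% of all genes), and at 10 mJ/cm2 13 lower and 0 higher (6.55% and 2.06%). At 20 mJ/cm2 0 were lower and 1 higher (1.41% and 0.396%), and at 40 mJ/cm2 8 were lower and 1 higher (5.74% and 3.61%). The medians over the members were −0.46, −0.32, −0.59, −0.12 and −0.27 in sham, 5, 10, 20 and 40 mJ/cm2, and those over all genes lay between −0.02 and 0.04. The doses were not tested against each other. Without 1 library the counts at 5 mJ/cm2 came to 5 (replicate 3 or 5 at 0 h left out), at 10 mJ/cm2 to 7 (replicate 3 at 0 h) and at 20 mJ/cm2 to 2 (replicate 5 at 0 h) or 0 (replicate 1, 3 or 4 at 0 h).

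Cyp51, Msmo1, Nsdhl, Lss, Acat2 and Insig2 were called lower in sham, 5, 10 and 40 mJ/cm2 alike, which makes 6 members called in 4 of the 5 conditions. The share of all genes called in those 4 conditions was not counted. Cyp51 in sham skin had a lowest, median and highest of 139, 189 and 356 CPM over the 25 later libraries, against 268, 372 and 763 CPM over the 5 libraries at 0 h. In 40 mJ/cm2 skin it had 125, 183 and 413 CPM in 24 later libraries, against 255 to 442 CPM at 0 h. Its log2 differences were −1.18 ± 0.18 in sham, −0.78 ± 0.15 at 5, −0.95 ± 0.21 at 10 and −0.80 ± 0.21 at 40 mJ/cm2 (edgeR adjusted p of 8.08e-05, 0.003, 0.00502 and 0.0195). At each of these doses most later libraries lay below the lowest 0 h library, in 23 of 25, 23 of 24, 20 of 24 and 20 of 24 cases.

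Nsdhl averaged 48.1 ± 10.4 CPM later and 86.3 ± 22.5 CPM at 0 h in sham skin (SD, n = 25 and 5), and 47.4 ± 10.5 CPM later and 74.6 ± 8.76 CPM at 0 h after 40 mJ/cm2 (n = 24 and 5). Its log2 differences were −0.88 ± 0.15, −0.63 ± 0.12, −0.81 ± 0.17 and −0.68 ± 0.15 in sham, 5, 10 and 40 mJ/cm2. Msmo1 differed by −1.01 ± 0.19, −0.78 ± 0.17, −0.94 ± 0.23 and −0.95 ± 0.23, and at 5 mJ/cm2 all 24 later libraries lay below the lowest 0 h library. Insig2, one of the proteins that retain Scap, averaged 101 ± 26.5 CPM later and 174 ± 28.0 CPM at 0 h after 40 mJ/cm2, a difference of −0.80 ± 0.16 (edgeR adjusted p = 0.00337). In sham skin the Insig2 difference was −0.55 ± 0.14 (edgeR adjusted p = 0.00943), and it was lost without sham replicate 2 at 0 h (0.0745). At 40 mJ/cm2 the Cyp51 call was lost without replicate 2, 3 or 4 at 0 h (highest edgeR adjusted p = 0.106) and the Msmo1 call without replicate 3 or 4 at 0 h (0.0595). Leaving out libraries in turn ended the Lss call 3, 3 and 2 times of 29 at 5, 10 and 40 mJ/cm2 (highest edgeR adjusted p = 0.137), the Acat2 call 1 and 2 times at 5 and 10 (0.0738) and the Msmo1 call once at 10 (0.0515). With the muscle gene level as a covariate, Cyp51, Msmo1, Nsdhl and Insig2 were not called in sham (−0.29, −0.22, −0.30 and −0.07), nor Cyp51 and Msmo1 at 10 mJ/cm2 (−0.40 and −0.44), while Lss and Acat2 were called lower in all 4 conditions.

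Other members were called in fewer conditions. Hsd17b7 and Insig1 were called lower in sham, 10 and 40 mJ/cm2, Sqle and Idi1 in sham, 5 and 10, Hmgcs1 and Stard4 in sham and 10, Sc5d at 10 alone, and Fdft1, Ebp and Dhcr7 in sham alone. Idi1 and Stard4 in sham skin, fitted with the muscle covariate, stood above 0, at 0.33 and 0.39 (edgeR adjusted p = 0.379 and 0.0545). That covariate also ended the calls of Hmgcs1 and Insig1 in sham (−0.11 and −0.17), of Idi1 at 5 mJ/cm2 (−0.61, edgeR adjusted p = 0.0643) and of Hmgcs1, Idi1, Sc5d and Stard4 at 10 mJ/cm2 (−0.33, −0.27, −0.16 and −0.17). Omitting a single library ended the Stard4 call in 11 of 29 cases at 10 mJ/cm2 and 3 of 30 in sham, the Idi1 call in 4, 3 and 1 cases at 5, 10 and in sham, the Sqle call at 5 mJ/cm2 and the Sc5d call at 10 mJ/cm2 in 3 each, and the Hmgcs1 call at 10, the Insig1 call in sham and the Hsd17b7 call at 40 mJ/cm2 in 1 each (highest edgeR adjusted p = 0.194). Hsd17b7 in sham skin differed by −0.88 ± 0.11 (edgeR adjusted p = 5.28e-06), and Sqle by −0.93 ± 0.12 (edgeR adjusted p = 9.85e-06). Insig1 averaged 105 ± 24.1 CPM later and 175 ± 11.4 CPM at 0 h after 40 mJ/cm2 (n = 24 and 5), and 23 of the 24 later libraries were below the lowest 0 h library. Not called lower at any dose were 13 members, namely Mvk, Pmvk, Mvd, Fdps, Ggps1, Tm7sf2, Srebf1, Srebf2, Scap, Npc1, Npc2, Abca1 and Abcg1.

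The only member called higher was Abcg1, a transporter that loads cholesterol onto lipoproteins. After 40 mJ/cm2 it averaged 21.8 ± 7.66 CPM later (lowest 10.2, highest 42.2, n = 24) and 10.7 ± 0.983 CPM at 0 h (lowest 9.18, highest 11.8, n = 5), a difference of 1.03 ± 0.22 (edgeR adjusted p = 0.00571). After 20 mJ/cm2 it averaged 18.2 ± 4.30 CPM later and 10.2 ± 2.04 CPM at 0 h (n = 23 and 5), a difference of 0.85 ± 0.20 (edgeR adjusted p = 0.0239). In sham skin the difference was 0.23 ± 0.18 (edgeR adjusted p = 0.421), and no test compared it with the irradiated groups. Sham skin at 0 h averaged 13.8 ± 5.44 CPM of Abcg1 (SD, n = 5), above the 0 h means at 20 and 40 mJ/cm2. The call at 20 mJ/cm2 was lost without replicate 1, 3 or 4 of its 0 h group (highest edgeR adjusted p = 0.173).

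**Figure D2:**
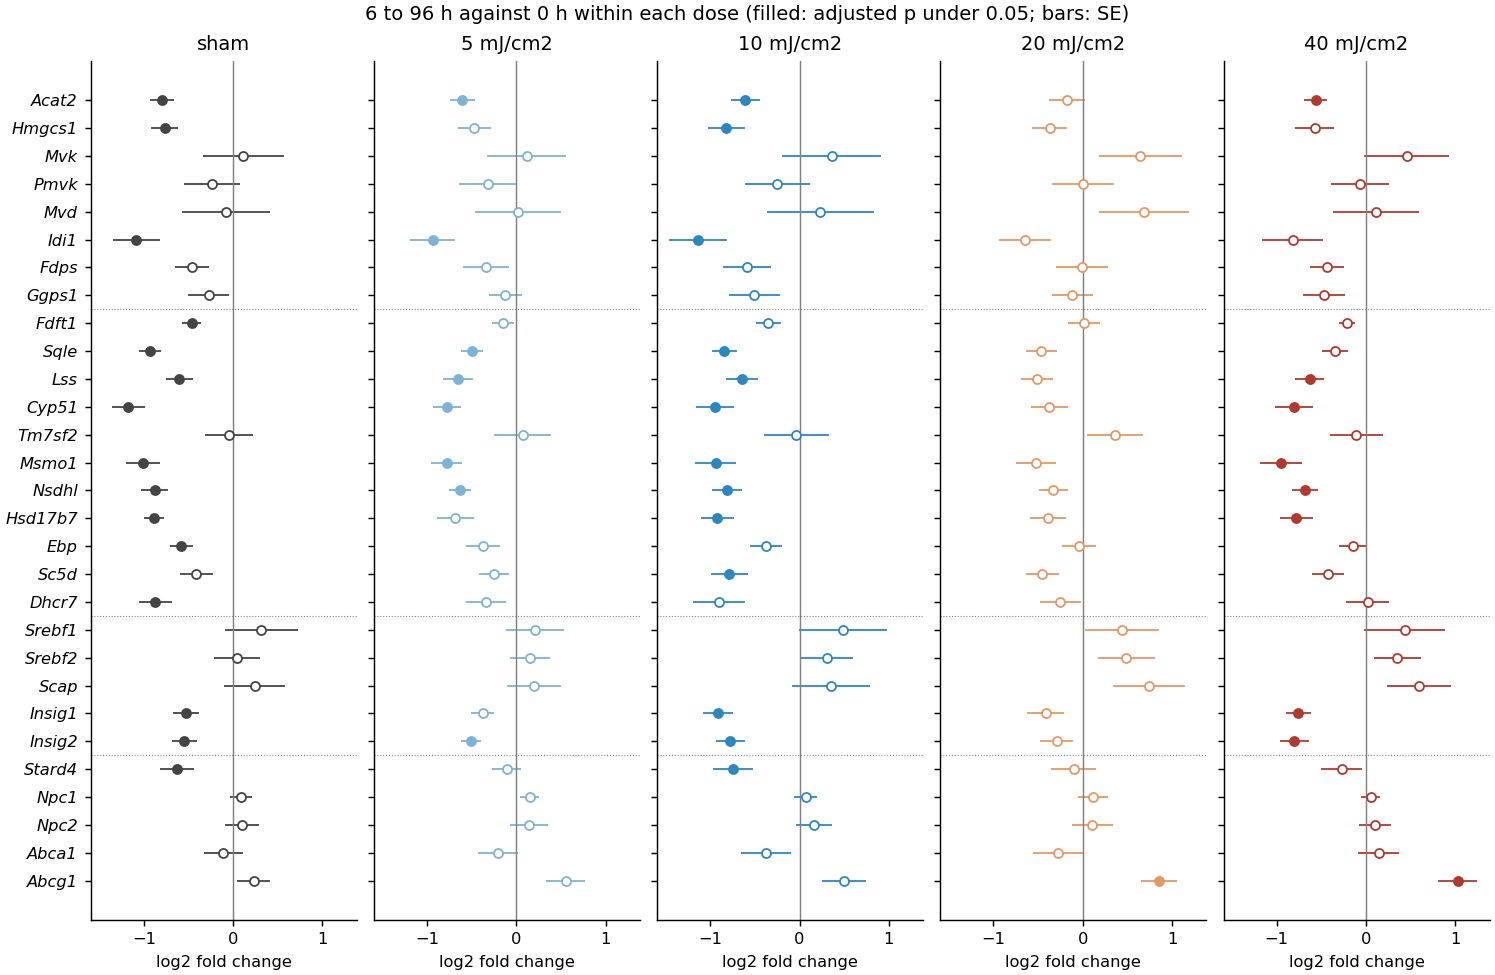
Log2 difference of the later libraries (6 to 96 h) from the 0 h libraries of the same dose for each of the 29 members, with SE bars, 1 panel per dose and filled points at an adjusted p under 0.05. Most enzymes and both Insig genes lie below 0, while Srebf1, Srebf2, Scap, Npc1 and Npc2 lie above 0 at each dose and Abcg1 reaches 1.03 at 40 mJ/cm2.

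The titles of 5 libraries start with repeat (20 mJ/cm2 at 0 h replicate 5, at 24 h replicate 4 and at 48 h replicate 2, 5 mJ/cm2 at 48 h replicate 3 and 40 mJ/cm2 at 96 h replicate 2), and without them the pooled counts at 5, 20 and 40 mJ/cm2 were 8 lower, 1 higher, and 8 lower with 1 higher. The title endings of the libraries split them into 71 that end in R1_001 and 74 that end in R1, and no label says what this marks. Within the R1_001 libraries the pooled comparison called 9 members lower in sham, 0 at 5, 14 at 10, 0 at 20 and 5 at 40 mJ/cm2, with 1 higher at 10 and 1 higher at 40 mJ/cm2. Of all genes, 4.67%, 1.21%, 40%, 0.391% and 3.63% were called in these fits in either direction. Within the R1 libraries, where each dose had 2 libraries at 0 h, it called 0 members at every dose and between 0.0268% and 0.428% of all genes. The median over members in the R1 libraries was −0.30, −0.08, −0.55, −0.08 and −0.36 in sham, 5, 10, 20 and 40 mJ/cm2, with 24, 17, 24, 16 and 20 of the 29 members below 0. Without the library under 1 M counts, 20 mJ/cm2 gave 1 member lower, Insig1 at −0.64 (edgeR adjusted p = 0.0407), and Abcg1 higher at 0.87 (edgeR adjusted p = 0.0219), with a median of −0.24.

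Cell type and clock markers also differed between later and 0 h skin within doses. Skeletal muscle genes were called higher for 14 of 19 in sham and 5 of 19 at 10 mJ/cm2, for 1 of 19 at 5 mJ/cm2 with 1 lower, and for 0 of 19 at 20 and at 40 mJ/cm2. Fitted with the muscle gene level, 17, 9, 14, 0 and 9 members were called lower and 1, 0, 0, 1 and 1 higher in sham, 5, 10, 20 and 40 mJ/cm2, where 37.8%, 5.93%, 12.5%, 2.77% and 11.4% of all genes were called. For sham skin this fit carries the limit given with the single times, that time and muscle level go together. Sebaceous gland genes were called lower for 8, 6, 7, 1 and 6 of 13 in sham, 5, 10, 20 and 40 mJ/cm2, and fatty acid synthesis genes for 8, 10, 7, 4 and 7 of 13. Adipocyte genes were lower for 2, 3, 10, 2 and 1 of 13. Keratinocyte genes in sham skin summed to 12810 to 26090 CPM at 0 h. At 24, 48, 72 and 96 h these sums were 8134 to 14900, 8537 to 10930, 6629 to 13590 and 6848 to 9099 CPM. In 40 mJ/cm2 skin they were 11940 to 17650 CPM at 0 h, 5474 to 9253 CPM at 6 h and 8887 to 27180 CPM at 96 h. Clock output genes were called in either direction for 9, 8, 9, 6 and 9 of 12. The part of the other lists in the fall of the sterol genes was not tested.

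**Figure D3:**
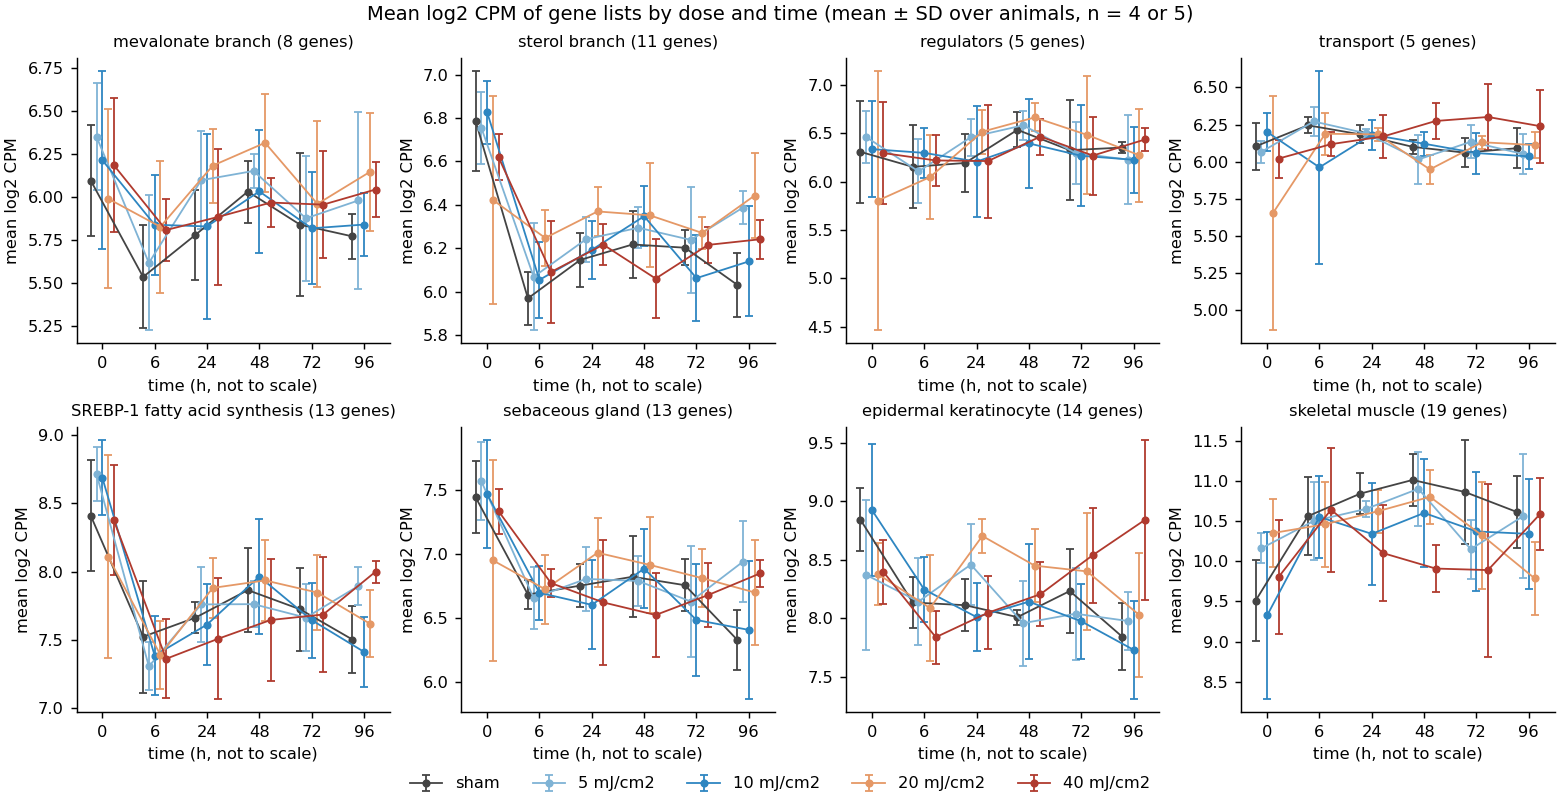
Mean log2 CPM over the genes of a list in each dose group at each time (points, mean over 4 or 5 animals, with SD bars), for the 4 roles of the members and 4 other lists. The mevalonate branch, sterol branch and sebaceous gland lists are highest at 0 h except at 20 mJ/cm2, the fatty acid list at all doses, and the wide bars of 20 mJ/cm2 at 0 h include the library of 0.204 M counts.

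Set against sham animals of the same time, irradiated skin gave calls for 2 of these genes, and for more once the muscle gene level was a covariate. In 23 of the 24 comparisons of a dose with sham, edgeR called 0 of the 29 members. All genes called made up 0% at 5 and 10 mJ/cm2 at all 6 times, 0.434%, 0.075% and 0.482% at 20 mJ/cm2 at 6, 24 and 48 h, and 0% at 0, 72 and 96 h. At 40 mJ/cm2 the share was 4.89% at 6 h, 2.92% at 24 h, 7.73% at 48 h, 1.26% at 72 h, 0.118% at 96 h and 0% at 0 h. At an unadjusted p under 0.05 there were between 0 and 10 members in a comparison, against between 1.09% and 21.3% of all genes. DESeq2 called 2 members lower at 40 mJ/cm2 and 6 h, 1 higher at 20 mJ/cm2 and 96 h and 0 in the others of these comparisons. Leaving out 40 mJ/cm2 replicate 4 at 6 h gave 2 edgeR calls there, and at 20 mJ/cm2 and 48 h leaving out replicate 1 gave 5 and replicate 3 gave 1. With the muscle gene level as a covariate, edgeR called 13 members at 40 mJ/cm2 and 48 h, 10 at 20 mJ/cm2 and 48 h (8 higher, 2 lower) and 8 at 40 mJ/cm2 and 24 h (7 higher, 1 lower), where 22%, 16.7% and 20.1% of all genes were called. It called 2 at 40 mJ/cm2 and 6 h, 1 at 40 mJ/cm2 and 72 h and 1 at 20 mJ/cm2 and 24 h, where 8.98%, 1.26% and 0.648% of all genes were called, and 0 in the remaining 18 comparisons. The doses of a time share its sham libraries.

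**Figure D4:**
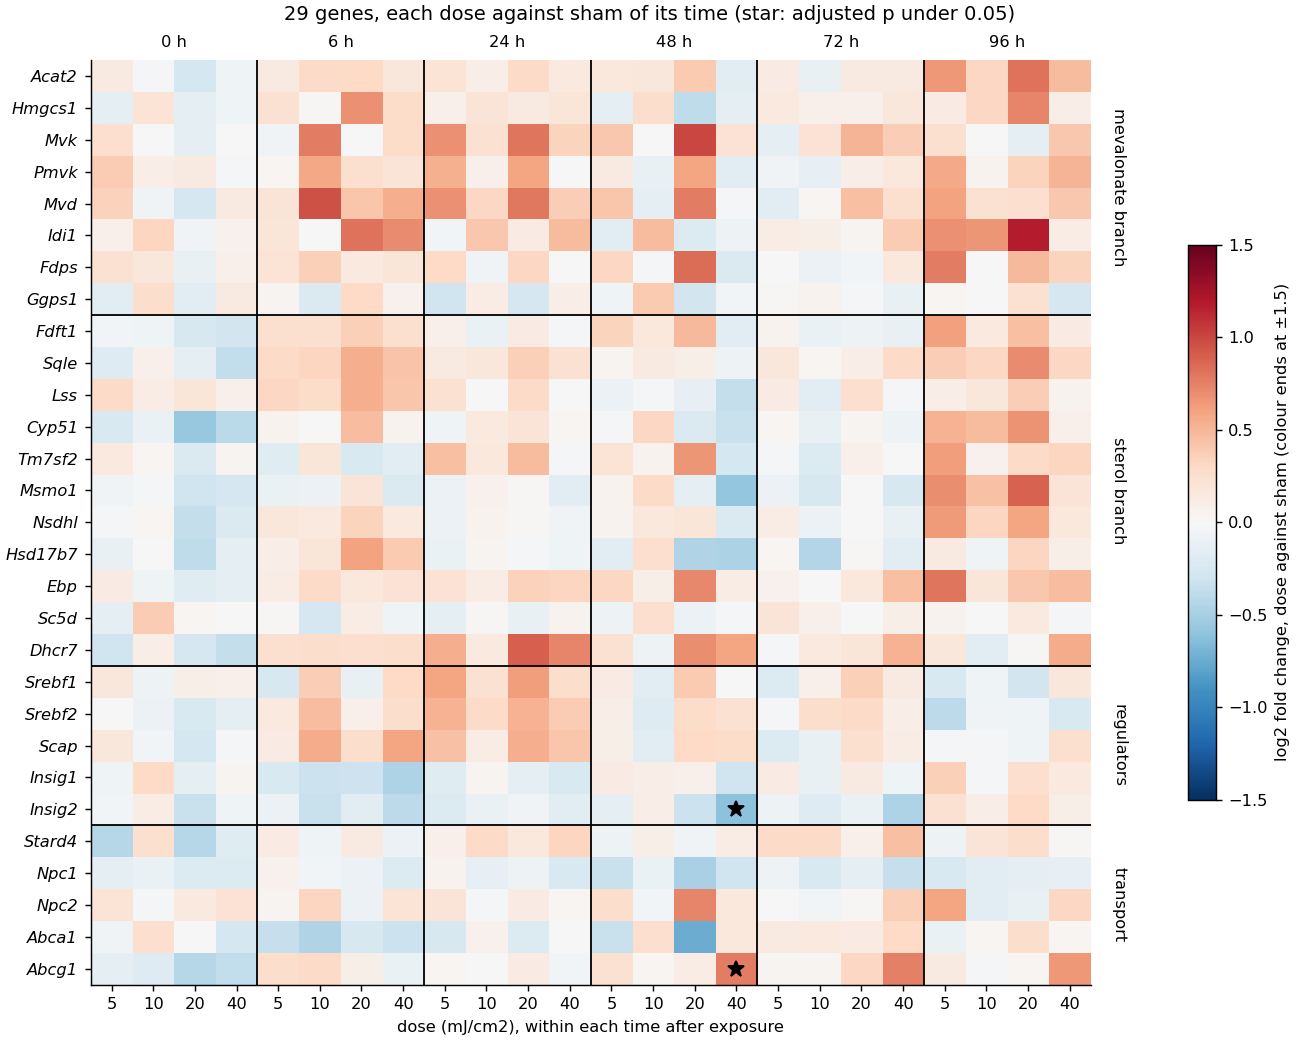
Log2 difference from sham of the same time for each of the 29 members (rows) in each of the 24 combinations of dose and time (columns), with stars at an adjusted p under 0.05. The 2 stars stand at Insig2 (−0.61) and Abcg1 (0.77), both at 40 mJ/cm2 and 48 h.

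The exception was 40 mJ/cm2 at 48 h, where 1 member rose and 1 fell, against 3.97% of all genes higher and 3.76% lower; a count of 2 in 29 is close to that background. Abcg1 had 29.7, 20.0, 30.5, 33.0 and 18.8 CPM in 40 mJ/cm2 skin, against 17.2, 14.4, 13.9, 15.3 and 16.7 CPM in sham skin. All 5 irradiated libraries were above all 5 sham libraries, with a log2 difference of 0.77 ± 0.20 (edgeR adjusted p = 0.018). Insig2 had 96.2, 87.0, 69.2, 72.3 and 73.0 CPM in 40 mJ/cm2 skin, against 129, 109, 108, 115 and 141 CPM in sham skin. Here all 5 irradiated libraries were below all 5 sham libraries, with a difference of −0.61 ± 0.15 (edgeR adjusted p = 0.00977).

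Insig2 kept its call without each of the 10 libraries in turn (highest edgeR adjusted p = 0.0432), while Abcg1 lost it without 40 mJ/cm2 replicate 3 or replicate 4 (highest edgeR adjusted p = 0.0614). Within title endings the directions held with no call: among R1_001 libraries Insig2 differed by −0.38 (edgeR adjusted p = 0.827) and Abcg1 by 0.64 (0.828), and among R1 libraries by −0.76 (0.0512) and 0.85 (0.0946). In 1 fit over all 145 libraries both missed the threshold (edgeR adjusted p = 0.0666 for Insig2 and 0.0503 for Abcg1). At the lower doses of 48 h, Abcg1 averaged 18.1 ± 4.87, 16.0 ± 4.15 and 16.6 ± 2.63 CPM at 5, 10 and 20 mJ/cm2 (SD, n = 5, 5 and 4), and Insig2 110.3 ± 20.6, 130.1 ± 21.8 and 95.1 ± 16.3 CPM. Over log2 dose among irradiated animals, the slopes at 48 h were 0.18 ± 0.07 per doubling for Abcg1 (edgeR adjusted p = 0.222) and −0.19 ± 0.06 for Insig2 (edgeR adjusted p = 0.084).

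Across times at 40 mJ/cm2, the Abcg1 difference from sham was −0.37, −0.10, −0.04, 0.77, 0.76 and 0.65 at 0, 6, 24, 48, 72 and 96 h, and it was not called after 48 h (edgeR adjusted p = 0.325 at 72 h and 0.79 at 96 h). At 72 h its 40 mJ/cm2 libraries had 27.7, 16.9, 18.5, 42.2 and 17.6 CPM, against 18.2, 12.3, 8.74, 14.8 and 19.7 CPM in sham skin, so that the ranges overlapped. The Insig2 difference was −0.06, −0.39, −0.16, −0.61, −0.46 and 0.09 over the same times. Neither difference shifted with time past the threshold: Abcg1 gave 0.89 ± 0.36 at 48 h against 6 h (edgeR adjusted p = 0.254) and Insig2 0.68 ± 0.27 at 96 h against 48 h (edgeR adjusted p = 0.327).

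**Figure D5:**
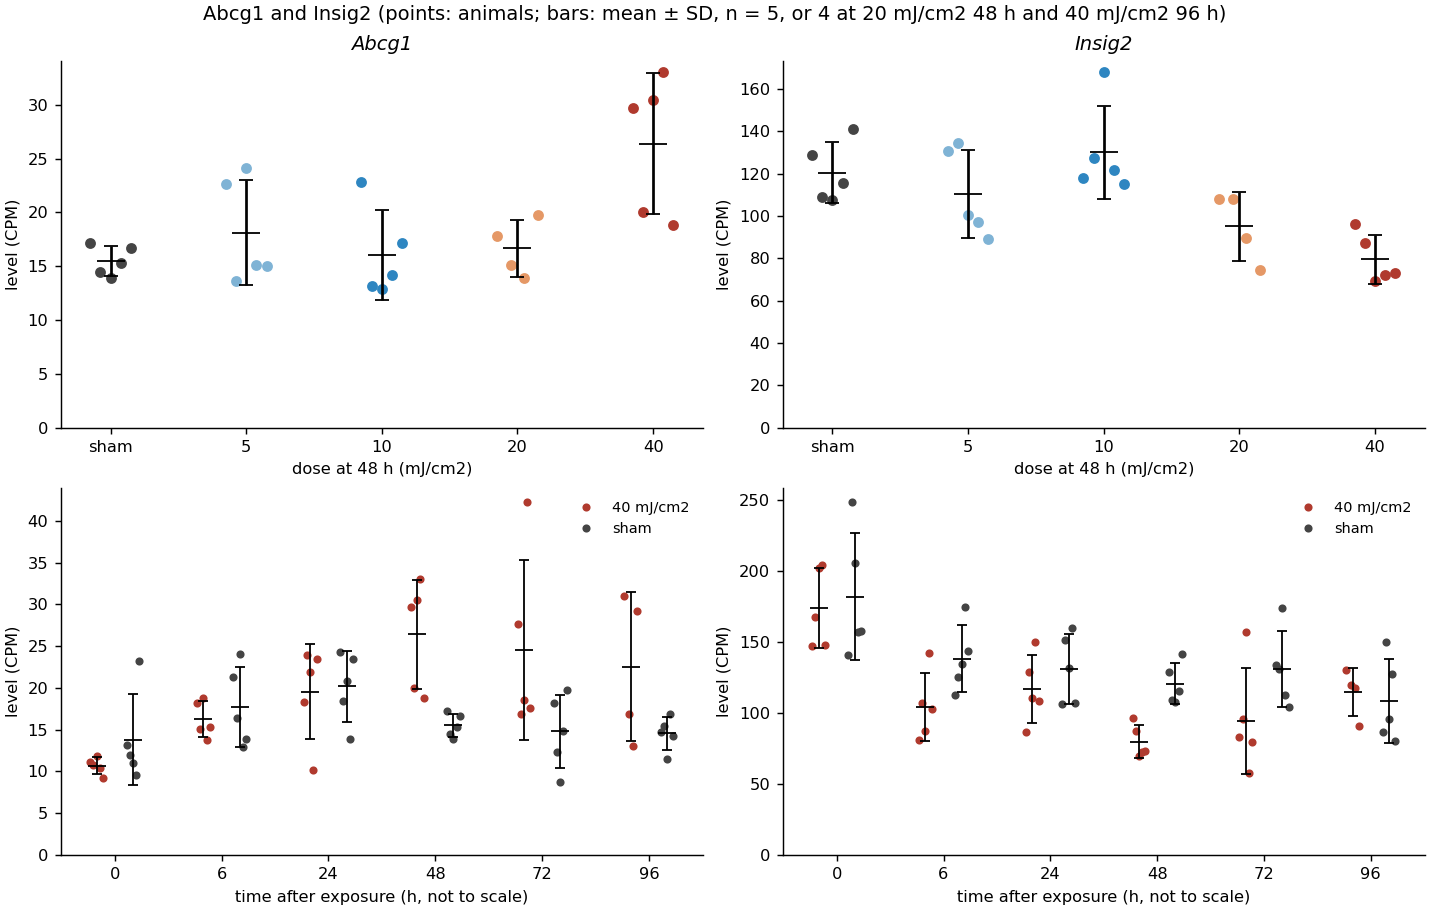
CPM of Abcg1 and Insig2 in each library, by dose at 48 h (top) and for 40 mJ/cm2 and sham side by side at each time in hours (bottom), with bars for mean and SD. At 48 h the 40 mJ/cm2 animals have 18.8 to 33.0 CPM of Abcg1 and 69.2 to 96.2 CPM of Insig2, outside the sham ranges of 13.9 to 17.2 and 108 to 141.

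Markers of other cell types moved in the same skin. At 40 mJ/cm2 and 48 h, 7 of 15 macrophage genes were called higher, led by Msr1 at 1.89 ± 0.28 and Itgam at 1.30 ± 0.20, and the list summed to between 1329 and 2603 CPM, against 1225 to 1736 CPM in sham skin. Neutrophil genes were called higher for 5 of 7 tested, with a sum of 30.7 to 295 CPM, against 8.73 to 25.8 CPM in sham skin, where 1 gene of the list was at 0 in all libraries. Skeletal muscle genes were called lower for 12 of 19, with a sum of 20150 to 35580 CPM, against 44890 to 72420 CPM in sham skin. Abcg1 is known from macrophages as well as other cells, and the part of these cells in its rise was not tested. With the muscle gene level as a covariate, Abcg1 differed by 1.13 (edgeR adjusted p = 0.00444) and Insig2 by −0.77 (edgeR adjusted p = 0.00759). Because the muscle sums of the 2 groups did not overlap, dose and muscle level cannot be told apart in that fit.

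The remaining 27 members at 40 mJ/cm2 and 48 h gave no call without that covariate, and their values ran both ways. With it, 11 of the 27 were called: Mvk (1.47), Mvd (1.34), Srebf1 (1.29), Dhcr7 (1.09) and Scap (1.03) higher, and Idi1 (−0.89), Msmo1 (−0.80), Cyp51 (−0.72), Ggps1 (−0.67), Hmgcs1 (−0.66) and Stard4 (−0.58) lower. These 11 calls carry the same limit, that dose and muscle level cannot be told apart here. Msmo1 had 393, 433, 249, 283 and 246 CPM in 40 mJ/cm2 skin, against 486, 370.1, 454, 438 and 580.1 CPM in sham skin, a difference of −0.57 ± 0.21 (edgeR adjusted p = 0.11). Dhcr7 had 72.6, 50.6, 51.7, 44.9 and 43.0 CPM in 40 mJ/cm2 skin, against 29.4, 36.0, 29.8, 37.6 and 38.5 CPM in sham skin. Its groups did not overlap, yet with a difference of 0.59 ± 0.23 it missed the threshold (edgeR adjusted p = 0.145). Npc1 likewise did not overlap, with 60.1 to 77.1 CPM in 40 mJ/cm2 skin, against 79.9 to 89.5 CPM in sham skin (−0.30 ± 0.16, edgeR adjusted p = 0.329). Over all 29 members the median difference was −0.08, against −0.01 over all genes.

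At 20 mJ/cm2 and 48 h, 10 members had an unadjusted p under 0.05 with 0 calls, 7 higher and 3 lower, where 21.3% of all genes had such a p. Dhcr7 had 52.3, 49.2, 50.9 and 63.8 CPM in 20 mJ/cm2 skin, against 29.4 to 38.5 CPM in sham skin (0.69 ± 0.25, edgeR adjusted p = 0.126). Fdps had 109, 288, 132 and 311 CPM in 20 mJ/cm2 skin, against 93.5 to 145 CPM in sham skin, and Npc2 had 213, 647, 189 and 447 CPM, against 182 to 237 CPM. Replicates 2 and 4 of this group were thus the high ones for both genes, and replicate 2 is a library titled as a repeat with an ng amount of its own. Without the libraries titled repeat, 0 members and 0.0482% of all genes were called here. At 96 h, 20 mJ/cm2 gave 8 members with an unadjusted p under 0.05, all higher, where 4.23% of all genes had such a p, led by Acat2 with 123, 129.9, 96.6 and 84.0 CPM, against 54.1, 58.9, 64.8, 64.5 and 63.1 CPM in sham skin. Its groups did not overlap, but the difference of 0.82 ± 0.18 had an edgeR adjusted p of 0.938, in a comparison where 0% of all genes were called.

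Over the 4 irradiated doses, edgeR called 0 members for a slope over log2 dose at any of the 6 times, with 0, 0, 0, 5, 1 and 0 members at an unadjusted p under 0.05 at 0, 6, 24, 48, 72 and 96 h, and DESeq2 called 2 at 48 h. Of all genes, 0%, 1.42%, 0.953%, 3.84%, 0.6% and 0.0428% were called for a slope at those times. An unadjusted p under 0.05 was found for 1.94%, 11.9%, 10.4%, 16.4%, 6.92% and 4.075% of all genes, in the same order. In 7 tests of whether the difference between 40 mJ/cm2 and sham itself shifted with time, 1 member was called, Sqle at 6 h against 0 h, where 2.16% of all genes were called. The other 6 tests called 0 members and 0.129% (24 h against 6 h), 1.19% (48 h against 6 h), 0.091% (96 h against 48 h) or 0% of all genes. Sqle had 70.8, 106, 93.3, 168 and 104 CPM in 40 mJ/cm2 skin, against 69.5, 105, 69.7, 82.9 and 80.0 CPM in sham skin at 6 h. At 0 h it had 118, 137, 138, 156 and 114 CPM in 40 mJ/cm2 skin, against 177, 238, 185, 137 and 118 CPM in sham skin. The effect thus stood at 0.42 ± 0.22 at 6 h and −0.37 ± 0.24 at 0 h in the fits by time, neither of them called, and its change was 0.82 ± 0.23 (edgeR adjusted p = 0.0485). It was lost in 14 of 20 fits that left out 1 library, and without the libraries titled repeat (edgeR adjusted p = 0.0515).

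Beyond the members, the sterol uptake, ester, efflux and LXR list gave calls at 40 mJ/cm2. Cyp7b1, which adds a hydroxyl group to oxysterols, was higher by 1.97 ± 0.40 at 24 h (edgeR adjusted p = 0.00714) and by 2.14 ± 0.29 at 48 h (edgeR adjusted p = 5.58e-05). At 48 h Vldlr, a lipoprotein receptor, differed by −0.74 ± 0.20 (edgeR adjusted p = 0.0253) and Cyp27a1, a sterol hydroxylase, by −0.68 ± 0.21 (edgeR adjusted p = 0.0442), which made 1 higher and 2 lower of 23 measured. In the fatty acid list, Elovl5 was the 1 of 13 called at 48 h, with −0.89 ± 0.21 (edgeR adjusted p = 0.0103). Of all genes 7.73% were called at 40 mJ/cm2 and 48 h, 3.97% higher and 3.76% lower, so counts this small are close to that background. Of the 10 genes of SREBP processing and enzyme degradation, 0 were called at 40 mJ/cm2 at any of the 6 times.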

How the data were processed

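RNA of whole dorsal skin (300 ng per sample by protocol; 2 of the 5 libraries titled repeat name another amount) was sequenced as single reads of 75 bases from stranded poly(A) libraries, per the labels' protocols. The deposited table holds expected counts per Ensembl gene made by the authors, of which 12.6% were not whole, for 145 of 150 planned libraries. Build GRCm39, STAR 2.7.10a, fastp 0.23.0, DESeq2 1.36.1 and bcl2fastq 2.20.422 stand in the submitters' processing notes, and the counting program and annotation are not stated there. Symbols were assigned to 52083 of 55416 identifiers. Counts were rounded and tested with the two-sided quasi-likelihood F test of edgeR 4.0.16 (R 4.3.3, limma 3.58.1) with TMM scaling, a filter on low counts and the title ending as covariate. P-values were Benjamini-Hochberg adjusted over 18677 genes. Dose groups were set against sham of the same time, and sham times against each other. Alternatives were DESeq2 1.42.0, other scaling, no filter, covariates, subsets and leaving out each library. The test was also run on counts simulated from its own fitted model, with changes placed only in well counted genes. That run covers neither shifts in tissue make-up nor changes in weakly counted members. Library depth limits precision for weakly counted members. Members, lists and tests were chosen with earlier results of these data known. Called members were named with values per library, other lists by their smallest p, and members shown without a call were picked after their values were seen. Overlapping genes (Fdft1, Cyp51, Ggps1, Tm7sf2, Srebf1, Npc1, Fdps, Mvd) and close paralogs (Acat2, Idi1) are uncertain to that extent. Some further genes of the pathway are not reported here.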

Additional observations from a re-analysis of the deposited data

Results flagged for a closer look

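Within groups of 4 or 5 libraries, 277 pairs of a member and a group from a comparison that called it were searched for a library far from the rest, which chance gives in about 1 in 20 groups, and 30 values in 16 libraries stood apart. In 10 mJ/cm2 skin, replicate 3 was high at 48 h for Cyp51 (399 CPM), Idi1 (384 CPM), Insig2 (168 CPM) and Stard4 (57.7 CPM), at 72 h for Cyp51 (432 CPM), Hmgcs1 (685 CPM), Idi1 (431 CPM) and Msmo1 (965 CPM), and at 96 h for Cyp51 (433 CPM), Idi1 (388 CPM), Nsdhl (84.7 CPM) and Sqle (169 CPM). In 40 mJ/cm2 skin at 6 h, replicate 4 was high for Cyp51 (413 CPM), Msmo1 (682 CPM) and Nsdhl (77.5 CPM). In sham skin at 72 h, replicate 3 was high for Cyp51 (356 CPM), Idi1 (325 CPM) and Nsdhl (76.8 CPM) and low for Dhcr7 (15.5 CPM). These 5 libraries had the highest mitochondrial share of their groups (11.2%, 14.4% and 6.79% in 10 mJ/cm2 skin at 48, 72 and 96 h, 8.35% in 40 mJ/cm2 skin, 12.0% in sham skin) and the lowest summed muscle gene level (21000, 18480, 18890, 20670 and 28550 CPM in that order). All 5 have titles that end in R1. Of other libraries with a value apart, sham replicate 4 at 6 h (Lss low), 5 mJ/cm2 replicate 3 at 96 h (Acat2 low) and sham replicate 2 at 96 h (Dhcr7 high) had both traits too. The part of these traits in the values that stood apart was not tested.

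Single values stood apart elsewhere. Acat2 had 103.5 CPM in 10 mJ/cm2 replicate 4 at 6 h, and at 5 mJ/cm2 107 CPM in replicate 4 at 0 h, 46.2 CPM in replicate 2 at 6 h and 70.1 CPM in replicate 3 at 96 h. Hmgcs1 had 185 CPM in 10 mJ/cm2 replicate 5 at 6 h, a library of 0.18 M counts, and Hsd17b7 76.9 CPM in 40 mJ/cm2 replicate 1 at 24 h. Lss had 120.2 CPM in 10 mJ/cm2 replicate 4 at 96 h, 159.7 CPM in 5 mJ/cm2 replicate 1 at 72 h and 55.8 CPM in sham replicate 4 at 6 h. Msmo1 had 1118 CPM in 5 mJ/cm2 replicate 3 at 0 h, and Dhcr7 48.8 CPM in sham replicate 2 at 96 h.

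The 40 mJ/cm2 effect on Sqle was called different between times, by 0.82 ± 0.23 on the log2 scale at 6 h against 0 h (edgeR adjusted p = 0.0485). That call was lost in 14 of 20 fits that left out 1 library (highest edgeR adjusted p = 0.173). The effect was not called at 6 h or at 0 h alone.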

How the results depend on the processing

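Called member results kept direction and call in 628 alternatives and lost the call in 158, and 5 turned, all with the muscle gene level as covariate (in sham skin, Hmgcs1 0.026 and Msmo1 0.0041 at 48 h, Hmgcs1 0.0021 at 72 h, and pooled 6 to 96 h Idi1 0.33 and Stard4 0.39). DESeq2 kept all 94 called member results. Counts of called members stayed within 1.5 times in 440 alternatives and moved in 48; the causes were not tested.

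DESeq2 gave 2 at 40 mJ/cm2 and 6 h, 1 at 20 mJ/cm2 and 96 h, 2 for the 48 h slope, 12 in sham at 48 h and 13 over all sham times. The muscle covariate gave 2, 8, 13 and 1 at 40 mJ/cm2 at 6, 24, 48 and 72 h, 1 and 10 at 20 mJ/cm2 at 24 and 48 h, 1 for the 48 h slope, 19, 17, 14 and 16 in sham at 6, 24, 48 and 72 h (33%, 38.9%, 17.9% and 33.7% of all genes), 17 over all times and 5 for the 40 mJ/cm2 effect at 48 h against 6 h. The mitochondrial covariate gave 1 at 40 mJ/cm2 at 6 and at 24 h, 2 for the effect at 6 h against 0 h and 3 for pooled 20 mJ/cm2. No filter gave 2 at 20 and 1 at 40 mJ/cm2 at 48 h, 4 and 3 in sham at 24 and 72 h, and 0 for the effect at 6 h against 0 h and for pooled 20 mJ/cm2. Without libraries titled repeat, a setting chosen after seeing the data, the 48 h slope gave 1 and the effect at 6 h against 0 h gave 0. Without libraries under 1 M counts, 40 mJ/cm2 at 6 h gave 1 and pooled 20 mJ/cm2 gave 2. R1_001 libraries alone gave 0 at 40 mJ/cm2 and 48 h, and pooled 9 in sham and 0 at 5 and 20 mJ/cm2; R1 libraries alone gave 0 for the same and for each pooled dose. The fit of all libraries gave 0 at 40 mJ/cm2 and 48 h and 1 at 5 mJ/cm2 and 96 h. RLE scaling gave 0 for the effect at 6 h against 0 h, no title ending 11 in sham at 48 h, and the hair covariate 7 in sham at 96 h and 0 for pooled 20 mJ/cm2.

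Leaving out 1 library gave 0 to 2 at 40 mJ/cm2 and 6 h, 0 to 5 at 20 and 1 to 2 at 40 mJ/cm2 at 48 h, 0 to 1 for the 48 h slope and for the effect at 6 h against 0 h, 7 to 12, 3 to 11, 4 to 11, 2 to 12 and 7 to 12 in sham at 6, 24, 48, 72 and 96 h, 5 to 11 over all times, and pooled 12 to 17, 5 to 9, 7 to 14, 0 to 2 and 6 to 12 in sham, 5, 10, 20 and 40 mJ/cm2. No paired analysis was possible because each library is an animal of its own and replicate numbers only name samples.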
